A study of Mus musculus with 4 samples.

Results

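The genes described here are 10 glycolytic enzyme genes, *Hk1*, *Hk2*, *Gpi1*, *Aldoa*, *Tpi1*, *Gapdh*, *Pgk1*, *Eno1*, *Pkm* and *Ldha*. They were taken by name from the 56748 gene IDs counted in the series, and all 10 had reads in every library. Their RNA was measured by nanopore direct RNA sequencing of C2C12 cells, an established mouse myoblast line that the labels give as wild type, in 2 scrambled and 2 knockdown libraries. Scrambled cells had been transfected with a scrambled shRNA and knockdown cells with a mixture of 3 shRNAs against *Hnrnpl*, which encodes the RNA-binding protein hnRNP L. The plasmids also expressed eGFP, and both groups were selected in puromycin. Each group was 1 selected stable line, and its 2 libraries came from different passages of that line, so an effect of the shRNA cannot be told apart from a difference between the 2 lines. The labels give 2 batches with 1 scrambled and 1 knockdown library each, and libraries are numbered by batch.

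Glycolysis splits glucose into pyruvate in the cytosol. In its first steps ATP is spent to phosphorylate the sugar, and in its later steps ATP and NADH are regained. Lactate dehydrogenase then returns the NADH to its oxidized form by turning pyruvate into lactate. Proliferating myoblasts rely on this route more than resting muscle stem cells do. Several of these enzymes, *Gapdh* above all, have left many processed copies of their mRNA in the mouse genome, and a read that fits a gene and its copy equally well cannot be assigned to either with confidence.

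Counted reads numbered 1387523 in scrambled 1, 1676911 in scrambled 2, 1374637 in knockdown 1 and 1229424 in knockdown 2. Of all reads, 22.7% to 23.8% were set aside for low mapping quality and 16.0% to 16.5% for overlap with more than 1 gene. *Hnrnpl* had 358 and 656 scrambled reads against 242 and 258 after knockdown, with both knockdown libraries the lower (log2 fold change -0.78, adjusted p = 0.0112 in edgeR). The size depended on the scrambled library, at -1.03 without scrambled 1 and -0.48 without scrambled 2. The myoblast markers *Myf5*, *Des* and *Vim* had reads in every library, but the defining marker *Myod1* had 1 read in all 4 libraries together, and 2 of the 5 myoblast markers were called lower. These were the myoblast cadherin *Cdh15*, with 113 and 152 reads in scrambled against 25 and 14 after knockdown, and the intermediate filament gene *Des*, with 373 and 571 against 309 and 242 (log2 fold change -0.56, adjusted p = 0.0308). The 7 markers of differentiated muscle summed to between 5.09 and 11.5 CPM, which is the read count relative to the counted reads of the library, and 5 of them had no reads. The 4 macrophage markers summed to between 1.79 and 3.25 CPM, and the 2 endothelial markers were at 0 except for 1 read. The 3 adipocyte markers summed to 15.1 and 19.1 CPM in scrambled and 52.4 and 39.9 CPM in knockdown, nearly all of it from *Pparg*. *Pparg* was called higher (log2 fold change 1.42, adjusted p = 0.00271), while *Adipoq* had 1 read, in scrambled 2, and *Plin1* had 0. The part of these marker differences in the results was not tested.

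The genes differ in how far their transcripts can be told apart from other places in the genome. The main transcript of each gene was aligned to GRCm39, and another place was counted as a copy where it matched at least 50% of the transcript with at least 90% identity. By this measure 8 of the 10 genes had copies, 230 in all, and only *Hk1* and *Hk2* had none. *Gapdh* had 194 of them, which is 84.3% of the total. *Ldha* had 15, *Aldoa* 6, *Eno1* 6, *Pkm* 4, *Pgk1* 2, *Tpi1* 2 and *Gpi1* 1. With 95% identity over 80% of the transcript as the limit, 82 copies were left, 78 of *Gapdh*, 2 of *Pgk1*, 1 of *Pkm* and 1 of *Ldha*. The *Eno1* copies *Gm4735* and *Eno1b*, at 99.64% and 99.48% identity, fell short only in length, matching 72.8% and 75.7% of the *Eno1* transcript. All 1302 coding bases of *Eno1* were still aligned in *Gm4735*.

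The sequences of the *Gapdh* copies are shown because nearly all reads on the gene and its copies were counted on 1 of them. *Gapdh* (ENSMUSG00000057666.19) lies on the reverse strand at chr6:125135289-125143518. The transcribed processed pseudogene *Gm13394*, on the reverse strand at chr2:28823442-28824693, matched it with 99.84% identity and differed by 2 substitutions over 1252 aligned bases. These are G197A, outside the coding sequence, and A586C, inside it, with the base of the gene first, then the position counted from 1 at the 5′ end of the transcript, then the base of the copy. G197A was also found in *Gm12033*, *Gm5559* and *Gm7336*, so A586C is the substitution that sets *Gm13394* apart from these 3. The 30 bases around position 586 are given below on the strand of the transcript, with that base in capitals. In *Gapdh* they lie in coding sequence at chr6:125139965-125139994 and in *Gm13394* at chr2:28824262-28824291, both on the reverse strand, and in *Gm12033* at chr11:20285654-20285683 on the reverse strand.

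Gapdh: aagggtggagccaaaAgggtcatcatctcc

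Gm13394: aagggtggagccaaaCgggtcatcatctcc

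Gm12033: aagggtggagccaaaAgggtcatcatctcc

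Of the 194 copies, 185 have the base of the gene at this position and 6 have C, while 3 have a gap. The 6 copies with C differ widely in their reads. *Gm13394* had 8611 reads over the 4 libraries, and *Gm5732*, *Gm4823*, *Gm4398*, *Gm4405* and *Gm9135*, which match *Gapdh* with 90.18% to 92.26% identity, had 0. Among the 185 copies with the base of the gene, 30 had reads, and these came to 66 in all.

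*Pgk1* is shown for the opposite reason, since no base of its coding sequence is substituted in its copies. *Pgk1* (ENSMUSG00000062070.13) lies on the forward strand at chrX:105230706-105247305, and its copies are *Pgk1-rs7*, on the reverse strand at chr12:10948566-10950313, and *Gm5537*, on the reverse strand at chr3:58009990-58011717. Both matched with 99.94% identity, and neither had a substitution within the 1251 coding bases or in the rest of the aligned transcript, insertions and deletions aside. The last 30 coding bases before the stop codon lie at chrX:105246853-105246882, at chr12:10948991-10949020 and at chr3:58010418-58010447. There is no capital because no base differs.

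Pgk1: cttcctggggtggatgctctcagcaatgtt

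Pgk1-rs7: cttcctggggtggatgctctcagcaatgtt

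Gm5537: cttcctggggtggatgctctcagcaatgtt

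*Eno1* (ENSMUSG00000063524.14, forward strand, chr4:150321073-150337027) is shown with its copy *Gm4735*, a transcribed processed pseudogene on the forward strand at chr2:80667439-80669107 that had reads in every library. They differed by 6 substitutions over 1669 aligned bases, of which T1390C, T1480G, A1720G, T1888C and C1897T lie in the coding sequence and A2015G outside it. The 30 bases around position 1390 lie at chr4:150331070-150331099 in *Eno1* and at chr2:80668195-80668224 in *Gm4735*, and the capital marks that position.

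Eno1: tgaccaggttgtcatTggcatggatgtggc

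Gm4735: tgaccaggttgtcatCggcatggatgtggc

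*Ldha* (ENSMUSG00000063229.16, forward strand, chr7:46490899-46505061) stands for the genes whose copies are easier to tell apart. Its closest copy, the processed pseudogene *Gm9247*, matched with 95.03% identity and had 67 substitutions over 1578 aligned bases. The coding window of 30 bases with the most differences lies at chr7:46500406-46500435, and in the copy on the reverse strand at chr14:93432588-93432617. It holds 6 differences, in capitals.

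Ldha: cctgATgggagaGagGctgggggttcacGC

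Gm9247: cctgTCgggagaAagCctgggggttcacCT

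The alignment of whole transcripts gave a mapping quality of 60 to 9 of the 10 genes and of 24 to *Pgk1*. Direct RNA reads start at the poly(A) tail and many end before the 5′ end, so the last 800 bases of each transcript were also aligned alone. *Pgk1* then had a mapping quality of 1. The *Gapdh* stretch had a mapping quality of 17 and was placed on a copy and not on the gene, and position 586 lies outside it. The other 8 genes had a mapping quality of 60 and were placed on the gene. Reads can also be set aside where annotated genes overlap. *Aldoa* shares 86.1% of its exon bases with *Gm57854* on the same strand, which had 1 read in the 4 libraries together, and *Gapdh* shares 81.5% with *Iffo1* on the opposite strand, which had at most 3 reads per library. Whether these overlaps took part in the counts was not tested.

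Knockdown was compared with scrambled to ask which glycolytic enzyme genes differ in RNA level when *Hnrnpl* is lowered. None of the 10 genes was called, and the largest difference, that of *Gapdh*, had a 95% interval that reached 0. The limits for a call were 0.05 for the adjusted p, 0.5 for the size of the log2 fold change and 10 for the mean normalized count, and 5.55% of the 8670 genes tested with edgeR were called, 2.33% higher and 3.22% lower. At an adjusted p under 0.05 alone the count was also 0, where the share over all genes was 5.95%. At an unadjusted p under 0.05 the count was 2, *Aldoa* and *Pkm*, both lower, where the share over all genes was 21.8%, made up of 10.3% higher and 11.5% lower. That count was 0 without scrambled 1, without scrambled 2 and with chromosome medians removed, and 1 without knockdown 2, with batch as a block and in DESeq2 with a parametric fit. It was 3 with no filter on low counts and 3 with copies summed into their gene. The 2 DESeq2 fits also called 0 of the 10. Knockdown over scrambled had a log2 fold change of below 0 for 5 of the genes and above 0 for 5, with a median of -0.08, while over all genes the median was -0.00059 and the middle 50% lay between -0.27 and 0.27. In bulk RNA, fewer cells of a type and less RNA per cell cannot be told apart.

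**Figure D1:**
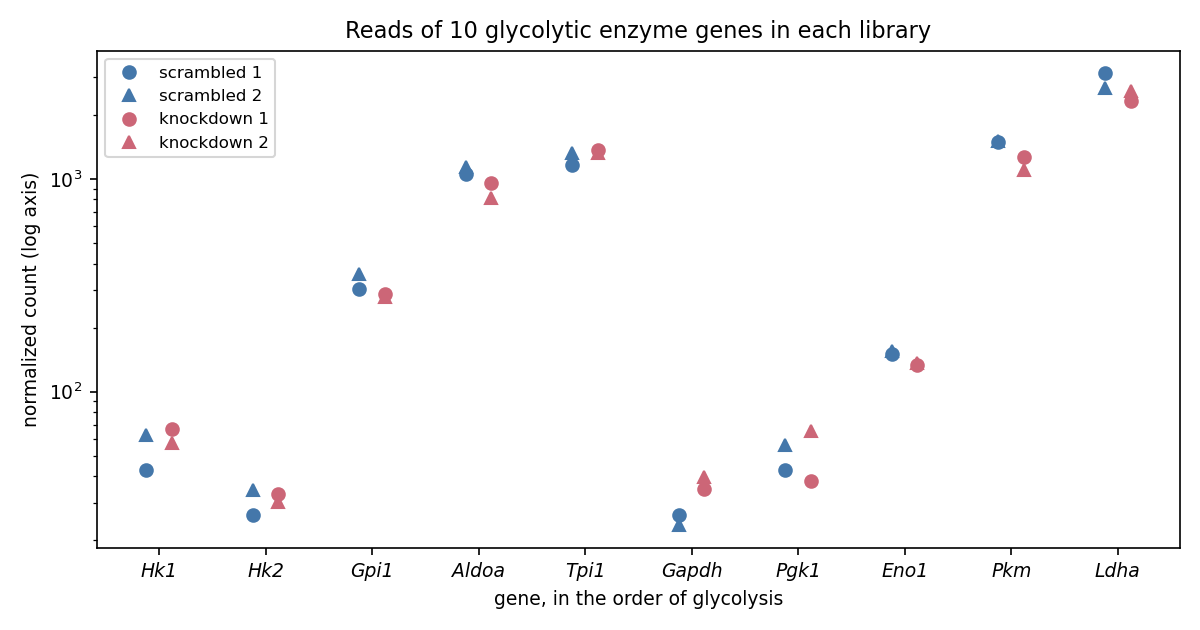
Normalized counts (log axis) of the 10 glycolytic enzyme genes, in pathway order, in scrambled (blue) and knockdown (red) libraries, with circles for batch 1 and triangles for batch 2. *Ldha* is highest, between 2325 and 3132, and *Gapdh*, *Hk2*, *Hk1* and *Pgk1* all sit under 100 in every library.

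Libraries of the 2 groups did not overlap in normalized count for 7 of the 10 genes, 5 of them lower in knockdown and 2 higher. Over all genes tested 26.0% were lower without overlap and 26.4% were higher. The 5 lower genes were *Gpi1*, *Aldoa*, *Eno1*, *Pkm* and *Ldha*, and the 2 higher genes were *Tpi1* and *Gapdh*. Reads of the 10 genes together made up 0.512% and 0.519% of the counted total in scrambled against 0.475% and 0.448% after knockdown. With the reads of their copies included these shares were 0.690% and 0.696% in scrambled against 0.661% and 0.611% after knockdown. On both measures each knockdown library was under each scrambled library. The sum of the 10 genes weighs them by their reads, so it rests mainly on *Ldha*, *Pkm*, *Tpi1* and *Aldoa*. Of these *Tpi1* was higher after knockdown.

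The order of the levels was read per length, as CPM per kilobase of the main transcript. *Ldha* was highest, between 1069 and 1357 over the 4 libraries. *Tpi1* followed with 497 to 623, *Aldoa* with 376 to 536 and *Pkm* with 312 to 435, and the ranges of *Tpi1* and *Aldoa* and those of *Aldoa* and *Pkm* overlapped. *Gpi1* lay between 66.4 and 86.9 and *Eno1* between 41.5 and 47.9. *Pgk1* with 15.1 to 24.96 and *Gapdh* with 11.8 to 19.5 overlapped each other, and *Hk1* with 6.90 to 11.4 and *Hk2* with 2.31 to 3.14 were lowest. Reads set aside for low mapping quality are in none of these levels, which bears on the place of *Pgk1*, whose last 800 bases had a mapping quality of 1. The order also depends on dividing by length, since a molecule of direct RNA gives about 1 read whatever its length. In CPM without that division, *Hk1* with 29.5 to 48.7 overlapped *Pgk1* with 27.6 to 45.5 and lay above *Gapdh* with 16.7 to 27.7, and *Pkm* with 765 to 1064 overlapped *Tpi1* with 799 to 1001. When reads on copies were added to their gene, the per-length level of *Gapdh* was 1029 to 1195, which overlapped that of *Ldha*, and that of *Eno1* was 117 to 161. In reads, without division by length, *Ldha* was above *Gapdh* with its copies in every library, though by only 2 reads in knockdown 1 (2334 against 2332).

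Hexokinases phosphorylate glucose as it enters the cell. *Hk1*, the form found in most tissues, had 41 and 74 scrambled reads against 67 and 49 after knockdown, in the order of the batches as throughout. *Hk2*, the insulin-responsive form of muscle and of many growing cells, had 25 and 41 scrambled reads against 33 and 26 after knockdown. The groups overlapped for both genes. In edgeR the log2 fold change was 0.22 for *Hk1* (standard error, SE, 0.23, 95% interval -0.26 to 0.71, adjusted p = 0.623) and 0.05 for *Hk2* (SE 0.29, 95% interval -0.56 to 0.66, adjusted p = 0.946). Within batches the sign turned, with log2 ratios of 0.64 in batch 1 and -0.12 in batch 2 for *Hk1* and 0.33 and -0.18 for *Hk2*. Without scrambled 2 the fold changes were 0.53 and 0.27, and without scrambled 1 they were -0.0017 and -0.12. Among the 15 alternatives the lowest values were -0.015 for *Hk1* and -0.23 for *Hk2*. *Hk1* made up 62.1% and 64.3% of the reads of both genes in scrambled against 67.0% and 65.3% after knockdown, and each of these shares lay within the 95% Wilson intervals of the others, the widest of which was 50.1% to 72.9% in scrambled 1.

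*Gpi1* encodes glucose phosphate isomerase, which turns the phosphorylated glucose into its fructose form. It had 291 and 423 scrambled reads against 289 and 237 after knockdown, or 330 ± 36.2 and 282 ± 7.74 normalized counts (SD, n = 2 each). Both knockdown libraries were under both scrambled libraries. This gave a log2 fold change of -0.23 (SE 0.15, 95% interval -0.53 to 0.08, adjusted p = 0.386). The log2 ratio of *Gpi1* was -0.08 in batch 1 and -0.36 in batch 2, and its fold change ran from -0.33 without scrambled 1 to -0.12 without scrambled 2. Its copy *Gpi-ps* had 9, 5, 9 and 3 reads, so between 96.98% and 98.83% of the summed reads lay on *Gpi1* over the 4 libraries.

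*Aldoa* encodes the aldolase of muscle and of most other tissues, which splits fructose bisphosphate into a pair of triose phosphates. It had 1006 and 1358 scrambled reads against 957 and 698 after knockdown. Normalized counts were 1098 ± 63.0 in scrambled and 885 ± 97.4 in knockdown (SD, n = 2 each), and the groups did not overlap. The log2 fold change was -0.31 (SE 0.14, 95% interval -0.60 to -0.02), with an unadjusted p of 0.0370 and an adjusted p of 0.196 in edgeR. It was below 0 in both batches, with log2 ratios of -0.14 and -0.49, and ran from -0.43 without knockdown 1 to -0.21 without knockdown 2, and none of the 6 *Aldoa* copies had a read.

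*Tpi1*, which encodes the triose phosphate isomerase that makes both pieces of the split sugar usable, had 1108 and 1564 scrambled reads against 1376 and 1130 after knockdown. After normalization these are 1160 and 1316 in scrambled against 1371 and 1321 after knockdown, so that scrambled 2 was close to both knockdown libraries. Knockdown over scrambled had a log2 fold change of 0.12 (SE 0.14, 95% interval -0.17 to 0.41, adjusted p = 0.657), and ran from 0.03 without scrambled 1 to 0.21 without scrambled 2. The median of chromosome 6, on which *Tpi1*, *Gapdh* and *Hk2* lie, was 0.28, and with chromosome medians removed *Tpi1* had a log2 fold change of -0.16.

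*Gapdh* encodes the dehydrogenase that yields the NADH of glycolysis, and it is a common reference gene of qPCR, used as such in this study. Only 25 and 28 reads were counted on it in scrambled against 35 and 34 after knockdown. *Gm13394* had 2074 and 2507 scrambled reads against 2283 and 1747 after knockdown, and the other 30 copies with reads had at most 4 each per library. Reads on *Gapdh* were therefore 1.18% and 1.10% of the summed reads of the gene and its copies in scrambled against 1.50% and 1.89% after knockdown.

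On the few reads of *Gapdh* itself both knockdown libraries were above both scrambled libraries, with 24.9 ± 1.85 normalized counts in scrambled and 37.3 ± 3.44 in knockdown (SD, n = 2 each). In edgeR the log2 fold change was 0.58 (SE 0.29, 95% interval -0.02 to 1.19, adjusted p = 0.251). *Gm13394* had 2140 ± 44.1 normalized counts in scrambled and 2158 ± 165 in knockdown, and its groups overlapped. Its log2 fold change was 0.01 (SE 0.14, 95% interval -0.27 to 0.30, adjusted p = 0.972). When the reads on *Gapdh* and all its copies were summed, the log2 fold change was 0.02 (95% interval -0.27 to 0.31, adjusted p = 0.955), or 1.01-fold with an interval of 0.831 to 1.24. The sum and the gene alone thus gave different sizes, and the sum had the narrower interval. With chromosome medians removed, the value of *Gapdh* alone was 0.31.

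**Figure D2:**
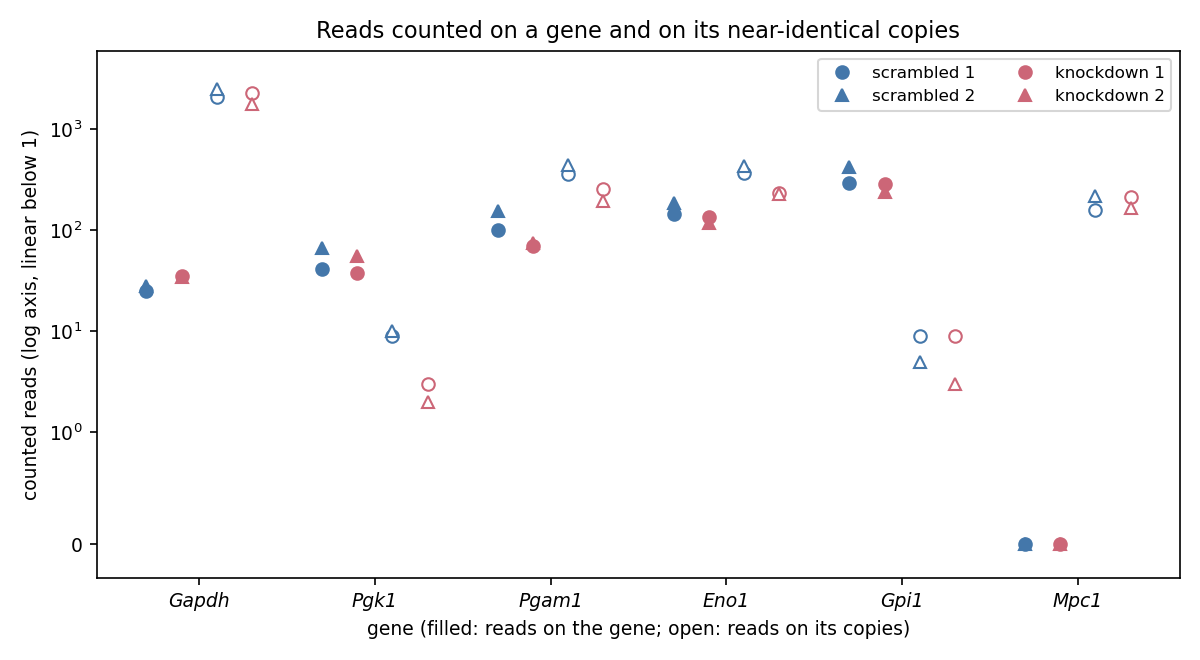
Reads counted on a gene (filled) and on its near-identical copies (open) in each library, on a log axis that is linear below 1, with scrambled in blue, knockdown in red, circles for batch 1 and triangles for batch 2. Copies hold more reads than the gene for *Gapdh*, *Pgam1*, *Eno1* and *Mpc1*, and fewer for *Pgk1* and *Gpi1*.

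*Pgk1* encodes phosphoglycerate kinase, the first step of glycolysis to regain ATP. It had 41 and 67 scrambled reads against 38 and 56 after knockdown, and its 2 copies together had 9 and 10 scrambled reads against 3 and 2 after knockdown. The libraries of the 2 groups overlapped for the gene. This gave a log2 fold change of 0.02 (SE 0.27, 95% interval -0.54 to 0.59, adjusted p = 0.974), and with the copies summed it was -0.14 (95% interval -0.66 to 0.39). Single libraries moved the value from -0.41 without knockdown 2 to 0.38 without knockdown 1.

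*Eno1* encodes the enolase of most tissues, which makes phosphoenolpyruvate. Reads on the gene were 144 and 184 in scrambled against 134 and 117 after knockdown, or 153 ± 2.85 and 135 ± 2.29 normalized counts (SD, n = 2 each), which did not overlap. The log2 fold change was -0.18 (SE 0.16, 95% interval -0.51 to 0.16, adjusted p = 0.557). More reads were counted on its copies than on the gene in every library. *Eno1b*, a copy annotated as protein-coding on chromosome 18 with 99.48% identity, had 282 and 347 scrambled reads against 182 and 197 after knockdown.

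Both abundant copies of *Eno1* were lower in each knockdown library than in either scrambled library. *Gm4735* had 85 and 81 scrambled reads against 51 and 33 after knockdown, and fell by 0.79 in log2 terms (SE 0.23, adjusted p = 0.0488), a call that was kept at an adjusted p under 0.05 in 6 of 14 alternatives. It was lost without scrambled 1 (-0.60), without knockdown 1 (-1.01) and without knockdown 2 (-0.62). *Eno1b* had a log2 fold change of -0.52 (SE 0.16, adjusted p = 0.0552), on a chromosome whose median was -0.28, and it was -0.24 with chromosome medians removed. Its adjusted p was under 0.05 in 4 of 14 alternatives, and single libraries moved it from -0.70 without knockdown 2 to -0.35 without knockdown 1. With *Eno1* and its copies summed, the reads were 511 and 612 in scrambled against 368 and 347 after knockdown, and the log2 fold change was -0.44 (SE 0.14, 95% interval -0.73 to -0.16, adjusted p = 0.0615). The share of these reads that lay on *Eno1* was 28.2% and 30.1% in scrambled against 36.4% and 33.7% after knockdown.

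*Pkm* encodes the muscle pyruvate kinase, whose M1 and M2 forms arise from a choice between a pair of exons made by RNA-binding proteins. The deposited values are counts per gene, so the forms were not measured here. *Pkm* had 1429 and 1784 scrambled reads against 1273 and 940 after knockdown, or 1499 ± 3.29 and 1183 ± 120 normalized counts (SD, n = 2 each), and both knockdown libraries were lower. Knockdown over scrambled had a log2 fold change of -0.34 (SE 0.14, 95% interval -0.63 to -0.05), with an unadjusted p of 0.0230 and an adjusted p of 0.150 in edgeR. It lies on chromosome 9, whose median log2 fold change was -0.37, and with chromosome medians removed *Pkm* was at 0.03. Single libraries moved it from -0.45 without knockdown 1 to -0.24 without knockdown 2. The part of the chromosome in the difference was not tested further.

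*Ldha*, the lactate dehydrogenase subunit typical of skeletal muscle, had the most reads of the 10 genes, 2991 and 3178 in scrambled against 2334 and 2222 after knockdown. Normalized counts were 3132 and 2674 in scrambled against 2325 and 2597 after knockdown, so scrambled 2 lay close above knockdown 2. In edgeR the log2 fold change was -0.24 (SE 0.14, 95% interval -0.54 to 0.06, adjusted p = 0.350), with log2 ratios of -0.43 in batch 1 and -0.04 in batch 2. The value of *Ldha* was -0.36 without scrambled 2 and -0.12 without scrambled 1. Its 15 copies had 2 reads in all. *Ldhb*, the subunit typical of heart, had 9 and 29 scrambled reads against 2 and 1 after knockdown, which was too few for the filter on low counts. *Ldha* made up 99.7% and 99.1% of the lactate dehydrogenase reads in scrambled, and at least 99.9% in both knockdown libraries.

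**Figure D3:**
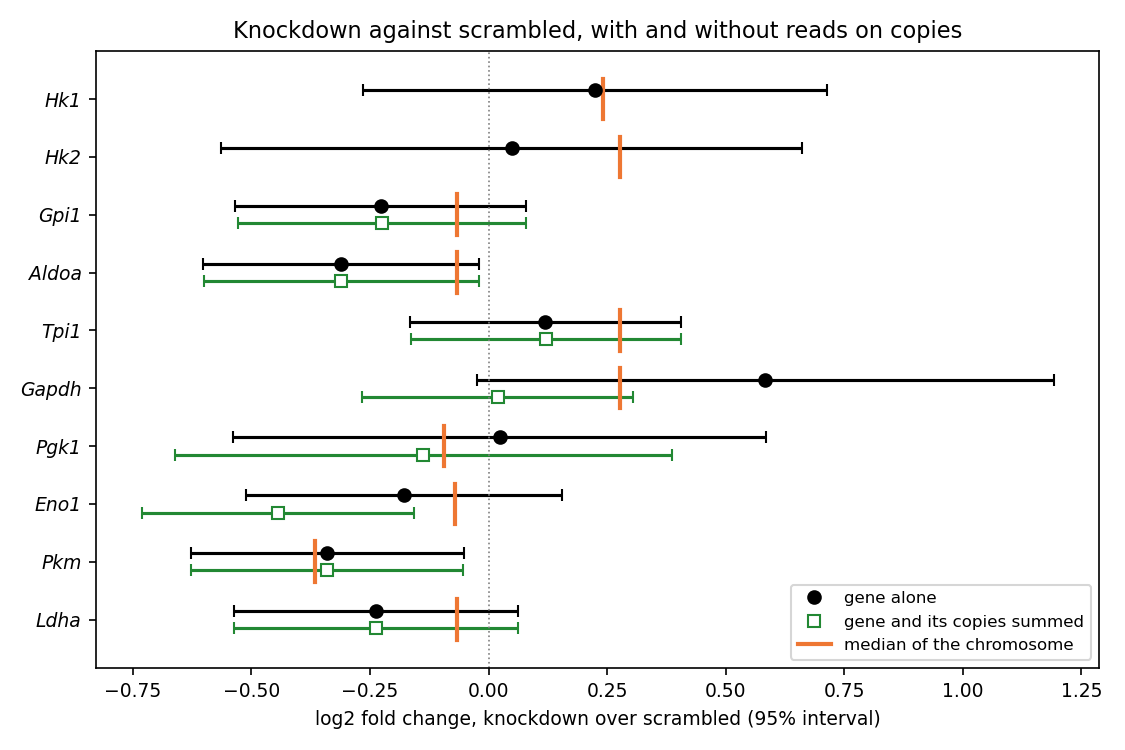
Log2 fold change of knockdown over scrambled with its 95% interval for each gene alone (black circles) and for the gene and its copies summed (green squares), with the median of the gene's chromosome (orange). For *Gapdh* the value moves from 0.58 to 0.02 and for *Eno1* from -0.18 to -0.44 when copies are summed, and *Pkm* at -0.34 lies near the median of its chromosome at -0.37.

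The 10 genes were set beside 91 other genes of the pathways around them. Of these 72 had reads and 58 were tested. None was called higher and 3 were called lower, *Pfkl*, *Pdhb* and *Got1*, which is 5.17% of those tested beside 5.55% over all genes. The median log2 fold change of the 58 genes was 0.06. At an unadjusted p under 0.05 there were 6 higher and 10 lower, or 27.6% beside 21.8% over all genes.

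Among the other glycolytic enzymes, 23 genes were listed and 9 tested, of which 1 was called lower, 0 higher and 8 were not called, with a median of -0.29. The call was *Pfkl*, the liver-type phosphofructokinase, which catalyses the committed step of glycolysis. It had 46 and 70 scrambled reads against 17 and 14 after knockdown, or 53.5 ± 7.58 and 16.6 ± 0.406 normalized counts (SD, n = 2 each), with no overlap. *Pfkl* fell by 1.68 on the log2 scale (SE 0.30, 95% interval -2.30 to -1.06, adjusted p = 0.00181), to 0.311-fold, on a chromosome whose median was 0.24. The adjusted p was under 0.05 in 14 of 15 alternatives, and in the exception, the DESeq2 Wald test with parametric fit, it was 0.0649.

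The other phosphofructokinases were not called in the main comparison. *Pfkp*, the platelet type, had 38 and 44 scrambled reads against 21 and 16 after knockdown, at a log2 fold change of -0.94 (SE 0.30, adjusted p = 0.0713). With chromosome medians removed *Pfkp* was called, at -1.17 with an adjusted p of 0.0362. *Pfkm*, the muscle type, had 26 and 39 scrambled reads against 39 and 21 after knockdown, and its groups overlapped (log2 fold change 0.09, 95% interval -0.55 to 0.73). Of all phosphofructokinase reads *Pfkm* made up 23.6% (95% Wilson interval 16.7% to 32.4%) and 25.5% (19.2% to 32.9%) in scrambled, and 50.6% (39.7% to 61.5%) and 41.2% (28.8% to 54.8%) in knockdown. Both knockdown shares were above both scrambled shares, and these intervals cover counting error only. For 2 libraries per group, 0.333 is the smallest p of an exact permutation test.

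**Figure D4:**
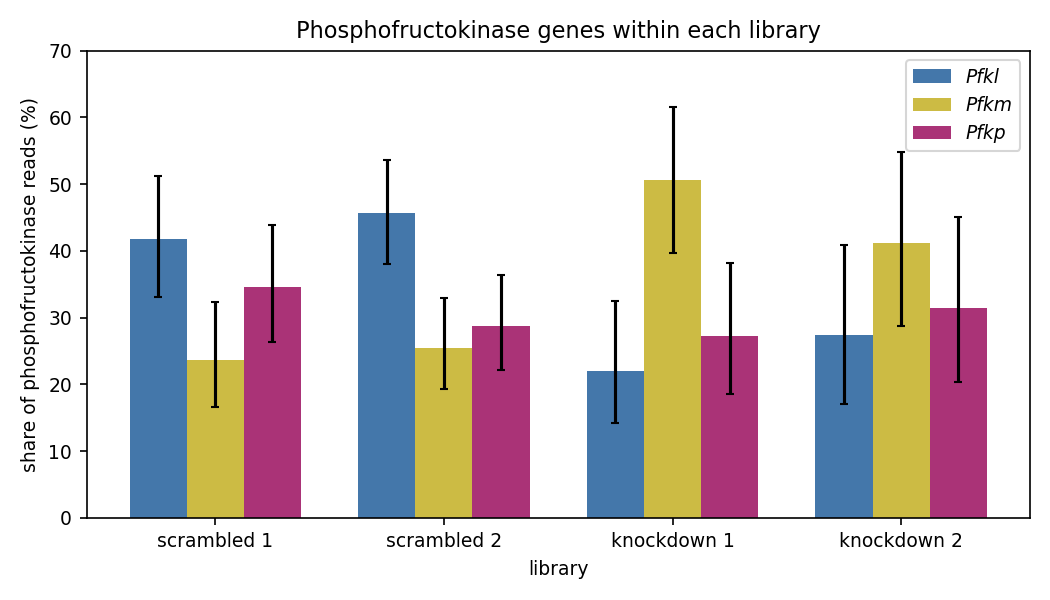
Share of all phosphofructokinase reads (%) on *Pfkl*, *Pfkm* and *Pfkp* in each library, with bars from 0 and 95% Wilson intervals as error bars. *Pfkl* holds 41.8% and 45.8% in scrambled against 22.1% and 27.5% after knockdown, and *Pfkm* is the largest share in both knockdown libraries.

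*Pgam1*, a phosphoglycerate mutase that acts between *Pgk1* and *Eno1*, shared the counting pattern of *Gapdh* and *Eno1*, with more reads on a copy than on the gene. It had 101 and 155 scrambled reads against 70 and 74 after knockdown, at a log2 fold change of -0.61 (SE 0.19, adjusted p = 0.0588). Over the 15 alternatives the value lay between -0.77 and -0.38. *Pgam1* was called in 3 of 15 alternatives, with no filter, in the robust test and without scrambled 1, and single libraries moved it from -0.77 without knockdown 2 to -0.45 without scrambled 2. Its copy *Pgam1-ps2*, a processed pseudogene at chr7:27168311-27170044 on the reverse strand, matched with 99.88% identity and differed by G141A and C1118T, both outside the coding sequence. *Pgam1-ps2* had 363 and 447 scrambled reads against 256 and 195 after knockdown, and fell by 0.64 in log2 terms (SE 0.14, adjusted p = 0.0109). It had an adjusted p under 0.05 in 13 of 15 alternatives, and the largest adjusted p among the 15 was 0.0916. The exceptions included the fit without knockdown 2, where the log2 fold change was -0.57.

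*Eno3*, the enolase of mature muscle, had 1101 and 1521 scrambled reads against 1457 and 1113 after knockdown and had no copy. It held 88.4% and 88.7% of the reads on *Eno1*, *Eno2* and *Eno3* in scrambled against 91.2% and 89.9% after knockdown, not counting reads on the copies of *Eno1*. With those copies *Eno1* had 511 and 612 scrambled reads against 368 and 347 after knockdown, which would lower the shares of *Eno3*. The log2 fold change of *Eno3* was 0.18 (SE 0.14, adjusted p = 0.488), and ran from 0.10 without knockdown 1 to 0.25 without knockdown 2. Per length *Eno3* lay between 456 and 609 CPM per kilobase, above *Eno1* with its copies in every library. *Adpgk*, an ADP-dependent glucokinase, had 55 and 83 scrambled reads against 44 and 40 after knockdown (log2 fold change -0.50, adjusted p = 0.203). It lies on the same chromosome as *Pkm*, and ran from -0.63 to -0.36 without scrambled 1 or 2. Among all 15 alternatives its value reached -0.14. *Galk1*, the galactokinase that feeds galactose into the pathway, had 141 and 144 scrambled reads against 99 and 103 after knockdown (log2 fold change -0.29, adjusted p = 0.350), and its value lay between -0.44 and -0.15 when single libraries were left out.

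*Mpc1*, a subunit of the mitochondrial pyruvate carrier, was another gene with more reads on a copy than on itself. It was listed at 0 in all 4 libraries, while the processed pseudogene *Mpc1-ps*, which matched 67.0% of the *Mpc1* transcript without a mismatch, had 157 and 217 scrambled reads against 215 and 166 after knockdown. The log2 fold change of *Mpc1-ps* was 0.23 (SE 0.16, adjusted p = 0.405), between 0.16 and 0.31 with single libraries left out.

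**Figure D5:**
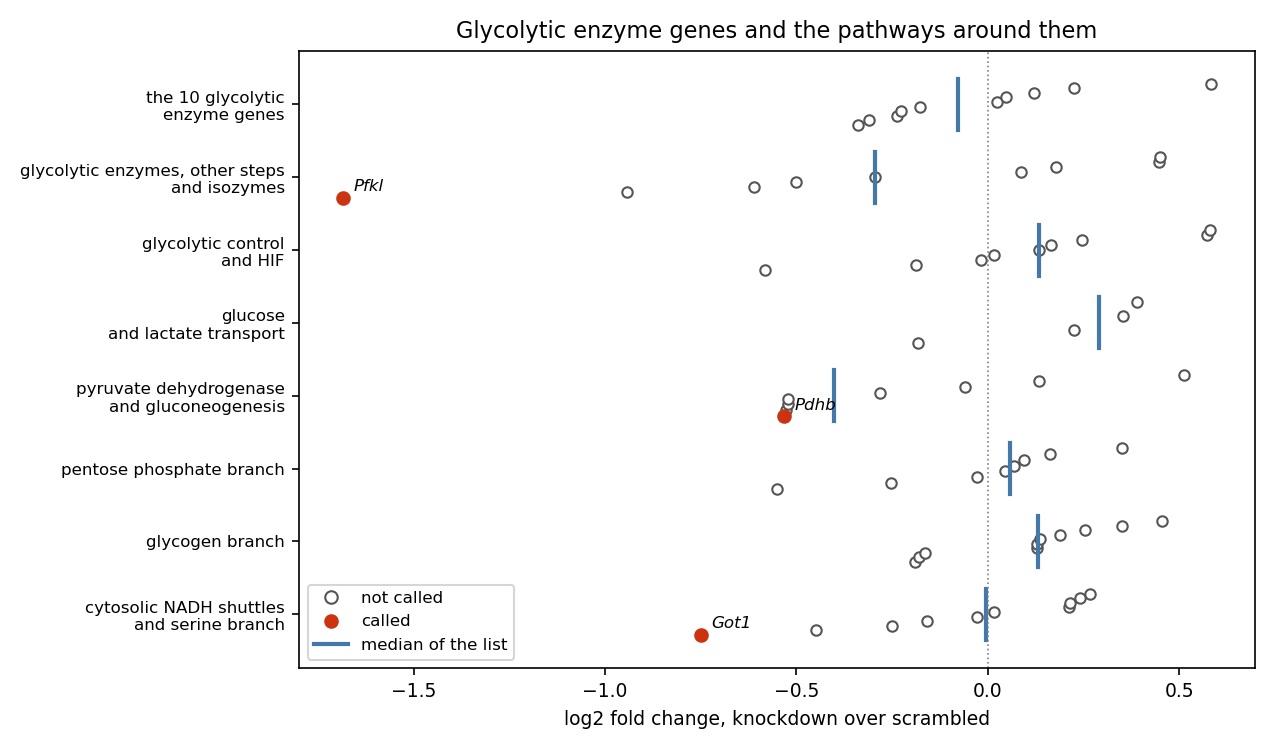
Log2 fold change of knockdown over scrambled for each tested gene (circles) by list, with called genes in red and the median of each list as a blue line. The called genes are *Pfkl* at -1.68, *Got1* at -0.75 and *Pdhb* at -0.53, and none of the 10 glycolytic enzyme genes in the top row is called.

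Of the control genes of glycolysis and HIF, 9 of 14 were tested and 0 were called, with a median of 0.13. *Pdk3*, a kinase that switches off pyruvate dehydrogenase, had 51 and 55 scrambled reads against 77 and 61 after knockdown (log2 fold change 0.58, adjusted p = 0.113). *Pdk4*, of the same family, had 37 and 69 scrambled reads against 75 and 61 after knockdown (log2 fold change 0.57, adjusted p = 0.145), and ran from 0.33 without scrambled 1 to 0.91 without scrambled 2. Both knockdown libraries were above both scrambled libraries in normalized count for both kinases. The transcription factors *Hif1a* and *Myc*, known activators of glycolytic genes, had log2 fold changes of -0.19 (adjusted p = 0.539) and -0.02 (adjusted p = 0.968), and with single libraries left out *Hif1a* lay between -0.25 and -0.14 and *Myc* between -0.15 and 0.11.

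Of the transporters, 4 of 11 were tested and 0 were called, with a median of 0.29. *Bsg*, the chaperone of lactate transporters, had 788 and 903 scrambled reads against 1032 and 852 after knockdown (log2 fold change 0.35, adjusted p = 0.125). Its value lay between 0.11 and 0.41 over the 15 alternatives. *Mpc2*, the other subunit of the pyruvate carrier, had 196 and 174 scrambled reads against 213 and 211 after knockdown (log2 fold change 0.39, adjusted p = 0.194), and ran from 0.15 without scrambled 2 to 0.64 without scrambled 1. The lactate transporter *Slc16a1* was at 0.22 (adjusted p = 0.385) and the glucose transporter *Slc2a1* at -0.18 (adjusted p = 0.624).

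Pyruvate dehydrogenase carries pyruvate into the mitochondrial cycle. Of its subunits and the genes of gluconeogenesis, 8 of 11 were tested and 1 was called lower, 0 higher and 7 were not called, with a median of -0.40. *Pdhb*, a subunit of the first enzyme of the complex, had 263 and 392 scrambled reads against 195 and 193 after knockdown, with no overlap, and fell by 0.53 in log2 terms (SE 0.16, adjusted p = 0.0485). The call of *Pdhb* rested on the settings. Its adjusted p was under 0.05 in 6 of 15 alternatives, it was 0.0633 with batch as a block, and on chromosome 14, whose median was -0.36, the value with chromosome medians removed was -0.17. Without scrambled 2 it was -0.40, without knockdown 1 it was -0.43 and without knockdown 2 it was -0.64, none of them past the threshold.

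*Dlat*, the acetyltransferase of the complex, had 174 and 254 scrambled reads against 138 and 118 after knockdown (log2 fold change -0.53, adjusted p = 0.0567), on chromosome 9. Its adjusted p was under 0.05 in 2 of 15 alternatives, and it was -0.16 with chromosome medians removed and between -0.64 and -0.41 with a scrambled library left out. *Pdha1*, the partner of *Pdhb*, had 52 and 59 scrambled reads against 35 and 32 after knockdown (log2 fold change -0.52, adjusted p = 0.223), and the third enzyme *Dld* was at -0.06 (adjusted p = 0.859). *Pck2*, the mitochondrial enzyme that makes phosphoenolpyruvate, had 81 and 138 scrambled reads against 87 and 45 after knockdown (log2 fold change -0.52, adjusted p = 0.178), and its groups overlapped. Single libraries moved *Pck2* from -0.94 without knockdown 1 to -0.23 without knockdown 2, and of the 15 alternatives it had an adjusted p under 0.05 in 1, without scrambled 1 (-0.72, adjusted p = 0.0428). *G6pc3*, a glucose phosphatase, had 76 and 91 scrambled reads against 115 and 92 after knockdown (log2 fold change 0.51, adjusted p = 0.0929).

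The pentose phosphate branch had 8 of 8 genes tested and 0 called, with a median of 0.06. *G6pdx*, which opens this branch, had 142 and 201 scrambled reads against 217 and 162 after knockdown (log2 fold change 0.35, adjusted p = 0.204), and lay between 0.25 and 0.44 with single libraries left out. Its genes with the most reads, *Pgls* and *Taldo1*, were at 0.16 (adjusted p = 0.554) and -0.03 (adjusted p = 0.937). Single libraries turned the sign of both, *Pgls* from -0.0089 without knockdown 2 to 0.32 without knockdown 1 and *Taldo1* from -0.17 to 0.13 without scrambled 1 or 2. The glycogen branch had 10 of 13 genes tested and 0 called, with a median of 0.13. *Pgm1*, which joins glycogen to glycolysis, and *Gyg1*, which primes glycogen, were at -0.18 (adjusted p = 0.567) and -0.16 (adjusted p = 0.624), and ran from -0.31 to -0.03 and from -0.28 to -0.06 with a scrambled library left out. No gene of the glycogen list had an unadjusted p under 0.05.

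Of the genes that carry cytosolic NADH into mitochondria and those that draw serine from glycolysis, 10 of 11 were tested and 1 was called lower, 0 higher and 9 were not called, with a median of -0.01. *Got1*, the cytosolic aspartate aminotransferase of the malate shuttle, had 245 and 356 scrambled reads against 167 and 141 after knockdown, with no overlap. *Got1* fell by 0.75 in log2 terms (SE 0.15, adjusted p = 0.00600). Its adjusted p was under 0.05 in 11 of 15 alternatives, and the call was lost without scrambled 2 (-0.64, adjusted p = 0.0584), without knockdown 1 (-0.76, adjusted p = 0.0580), with chromosome medians removed (-0.52, adjusted p = 0.0714) and in the DESeq2 Wald test with parametric fit (-0.76, adjusted p = 0.0735).

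*Psat1*, an aminotransferase of serine synthesis, had the most reads of this list, 1477 and 1433 in scrambled against 1004 and 867 after knockdown. Both knockdown libraries were lower (log2 fold change -0.45, SE 0.15, adjusted p = 0.0742). The value of *Psat1* lay between -0.63 and -0.22 over the 15 alternatives. Among the libraries left out in turn, *Psat1* passed the threshold without scrambled 2 (-0.63, adjusted p = 0.0384) and was at -0.26 without scrambled 1. *Mdh2*, the mitochondrial malate dehydrogenase, had 758 and 1055 scrambled reads against 913 and 891 after knockdown (log2 fold change 0.21, adjusted p = 0.392), ran from 0.11 without knockdown 2 to 0.31 without knockdown 1, and was at -0.02 with chromosome medians removed. *Phgdh*, the first enzyme of serine synthesis, was at 0.21 (adjusted p = 0.368).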

How the data were processed

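The deposited values are whole read counts that the authors made with HTSeq 0.9.1 from direct RNA reads, after basecalling in guppy and alignment to GRCm39 in minimap2 2.17, with no normalization and 1 table per library. The annotation release and the strand setting of the counting are not given in the sources used here. Rows for reads on no gene were kept out of library sizes. Symbols came from GENCODE vM39, in which 56017 of the 56748 IDs were found. There were 0 unused sample columns.

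The comparison of knockdown with scrambled used edgeR 4.0.16 under R 4.3.3, with TMM, filterByExpr, the quasi-likelihood test without a batch term and Benjamini-Hochberg adjustment over 8670 genes. A normalized count is the count after TMM scaling, at the mean library size. Intervals of log2 fold changes are 95% intervals from the standard error. The replicates are passages of 1 line per group and also differ in batch, so p-values measure the spread between passages and batches together. Intervals of shares cover counting error only, and a count of 0 allows 1.79 to 2.44 CPM (at 3 counts). An SD of 2 libraries is imprecise and can lie below counting error, as for *Pfkl* after knockdown (0.406, on 17 and 14 reads). The fit was tested on simulated data.

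The genes named are the 10 enzymes, pathway genes that were called or had an unadjusted p under 0.05, the 2 genes per pathway list with the most reads, copies with reads and *Hnrnpl*. Most copies with few reads are given by number only. Other genes were named after their values were seen. The members and lists were chosen with earlier results of these data known.

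Main transcripts were aligned to GRCm39 with minimap2 2.31 in splice mode. An annotated gene at a matching place was taken as a copy where at least 50% of its own exon bases lay inside the match. This condition was added after the data were seen, because it leaves out genes that only host a copy in an exon.

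Replicate numbers are the batches of the labels. Over 7705 genes, the deviation of scrambled 1 from its group mean and that of knockdown 1 had a correlation of -0.01, and the replicate block was run as an alternative. The others were upper quartile or RLE factors, a filter at 10 counts in each library or none, DESeq2 1.42.0 with a local or a parametric fit, the robust test, *Rn18s* and the mitochondrial genome left out, chromosome medians removed, copies summed into the gene, and each library left out.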

Additional observations from a re-analysis of the deposited data

How the results depend on the processing

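None of the 10 enzyme genes was called, or had an adjusted p under 0.05, in any of the 15 alternatives. The sign of the log2 fold change was kept in all 15 for *Gpi1*, *Aldoa*, *Gapdh*, *Eno1* and *Ldha*, in 14 for *Tpi1* and *Pkm*, in 13 for *Hk1* and in 12 for *Hk2* and *Pgk1*. Over all genes, 481 were called. This was 228 in DESeq2 with a local fit, 115 with a parametric fit and 285 with chromosome medians removed, 612 with no filter and 544 in the robust test, and between 194 (without knockdown 1) and 433 when single libraries were left out. Of the pathway genes 3 were called, 0 in DESeq2 with a parametric fit, 5 in the robust test and between 1 and 5 when single libraries were left out. Copies numbered 230, or 82 at the stricter limit. The cause of these differences was not tested. With the replicate block, which pairs libraries by batch, 484 genes and 2 pathway genes were called, *Pdhb* being lost, and 0 of the 10 enzyme genes.

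With 2 passages of 1 line per group the spread between lines is not measured. *Gapdh*, *Hk2*, *Hk1* and *Pgk1* had 25 to 74 reads per library, and the interval of *Hk2* ran from -0.56 to 0.66 on the log2 scale. When a library was left out, the lone library of a group was assumed to vary like the other group.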
